A study of Danio rerio with 4 samples.

Results

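The enzymes described are those of the methionine cycle and of transsulfuration in zebrafish liver, measured in fish given 5 µM cadmium and in controls at day 4. They were chosen by gene symbol in the array platform's probe-to-gene table, as every probe annotated to mat1a, mat2b, gnmt, ahcy, bhmt, cbsb or cth. All 7 genes were present, with 11 of the 43603 probes, and they are set beside 15554 named genes in all. In mat1a, gnmt, bhmt and cbsb 1 probe stood for the gene, mat2b and cth had 2 probes each, and ahcy had 3.

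The methionine cycle turns methionine into S-adenosylmethionine, the methyl donor of most methylation reactions, then into S-adenosylhomocysteine and homocysteine. Homocysteine is either methylated back to methionine or passed through transsulfuration to cysteine, from which glutathione and taurine are made. In mammals the liver carries most of this flow.

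The series comprised total RNA of liver from 2 cadmium replicates (1 and 2) and 2 control replicates (2 and 3), hybridised as pairs to 4 two-colour Agilent arrays in a loop that put each RNA on both dyes, Cy5 on one array and Cy3 on another. The cadmium group had 5 µM and the control group 0 µM, both at day 4. The sample labels write another unit beside the same dose numbers, and the unit is that of the design text. The sources used here give neither strain, age nor sex, nor say if a replicate pooled several fish. The p-values therefore reflect spread among these 4 RNAs only, which may be technical.

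Every value is a log2 ratio, turned to cadmium over control, and none is an expression level. Array 1 set cadmium replicate 1 against control replicate 2, array 2 cadmium replicate 1 against control replicate 3, array 3 cadmium replicate 2 against control replicate 3, and array 4 cadmium replicate 2 against control replicate 2. Signs rest on reading the deposited ratio as Cy5 over Cy3. That direction is likely, because it is the convention of limma, the tool the submitters name, and because each array's title gives the Cy5 RNA first. Read the other way, every sign below would turn, with sizes and p-values kept. From the 4 arrays a value for each RNA was solved, relative to the mean of the 4 RNAs, together with a dye effect. A gene's value is the mean over its probes, and each log2 difference is followed by limma's moderated standard error (SE), from 2 RNAs per group.

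The RNAs were not alike in their tissue markers. Of 16 measured ovary and oocyte markers, all 16 were highest in cadmium replicate 2 and lowest in cadmium replicate 1, with list medians of -0.70 in cadmium replicate 1 and 1.29 in cadmium replicate 2, against -0.39 and -0.15 in control replicates 2 and 3. Medians of 15 pancreas markers were 0.03 and 0.25 in cadmium replicates 1 and 2, against 0.68 and -0.76 in control replicates 2 and 3, and all 15 were higher in control replicate 2 than in control replicate 3. The 14 measured hepatocyte markers had list medians of 0.03 and -0.0096 in cadmium replicates 1 and 2 and of -0.05 and 0.04 in control replicates 2 and 3. Single hepatocyte markers spread more, and in both directions: of the 14, 5 were lowest and 3 highest in cadmium replicate 2. The widest between the cadmium replicates was ttr, at 0.40 and -0.80 in cadmium replicates 1 and 2, against 0.35 and 0.05 in control replicates 2 and 3. All 7 leukocyte markers had a log2 difference below 0, with a median of -0.20, and 5 of the 7 were lowest in cadmium replicate 2. The 4 intestine markers had list medians of -0.22 and 0.21 in cadmium replicates 1 and 2, against 0.35 and -0.29 in control replicates 2 and 3. Among them fabp6 was at 0.83 and -1.94 in cadmium replicates 1 and 2, against 2.69 and -1.58 in control replicates 2 and 3. In the cadmium replicates vil1 (-0.96 and 0.67) and fabp2 (-0.34 and 0.52) had the reverse order, and cdx1b was at -0.09 in both. The part of these markers in the enzyme values was not tested. The markers ttr and fabp6 were singled out after their values were seen. Over all probes the log2 ratios had standard deviations of 0.198 and 0.230 on arrays 1 and 2, and 0.388 and 0.353 on arrays 3 and 4, which carried cadmium replicate 2. Arrays 1 and 3 had no RNA in common, nor had arrays 2 and 4. Over all probes the ratios correlated at -0.04 and -0.22 in these pairs, so cadmium-to-control ratios did not repeat across the whole table. Many probes of an array held exactly the same deposited value: there were 12051 to 15859 distinct values per array, and 66.7% of probes shared their value with another probe on all 4 arrays. Of the 11 enzyme probes only cth probe 2 did so, and 8 shared no value on any array. In bulk liver, fewer cells of a type and less RNA per cell cannot be told apart, and log ratios do not show whether a marker was present.

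None of the 7 genes or 11 probes passed the test. With Benjamini-Hochberg adjustment over the whole table, limma called 0% of the 15554 genes and 0% of the 43603 probes at the 0.05 threshold. The adjusted p of each of the 7 genes was 1.00. At an unadjusted p under 0.05 there were 2 of the 7 genes, mat1a and cth, beside 2.02% of all genes, and 2 of the 11 probes, beside 1.52% of all probes. With 2 RNAs per group an exact permutation test of the RNAs cannot give a two-sided p below 0.333.

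The gene that stood furthest from 0 was mat1a (Entrez Gene 334195), which encodes the liver form of methionine adenosyltransferase, the enzyme that makes S-adenosylmethionine from methionine and ATP. Its probe read 0.96 and 1.14 on arrays 1 and 2, which carried cadmium replicate 1, and 0.78 and 1.22 on arrays 3 and 4, which carried cadmium replicate 2. Each cadmium RNA was therefore higher against each control it met. Relative to the mean of the RNAs, mat1a was at 0.54 and 0.48 in cadmium replicates 1 and 2, against -0.58 and -0.45 in control replicates 2 and 3. The groups did not overlap: the lower cadmium RNA lay 0.93 above the higher control RNA, whereas the cadmium RNAs differed from each other by 0.06 and the controls by 0.13. The log2 difference was 1.02 ± 0.10 (SE), a 2.03-fold ratio, the tenth highest difference of 15554 genes and the fourth in the size of the moderated t. The dye effect of the probe was 0.16.

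The regulatory subunit that in mammals partners the non-hepatic methionine adenosyltransferase is encoded by mat2b (Entrez Gene 541347), whose 2 probes differed in their spread. Probe 1 read -0.11, 0.0085, 0.86 and -0.43 on arrays 1 to 4, and probe 2 read 0.35, 0.03, 0.24 and 0.22. The wide probe 1 separated the controls more than the treatment, with control replicate 2 above control replicate 3 by 0.70. The pancreas markers had the controls in the same order as probe 1. Probe 2 had the reverse order, with control replicate 2 at -0.18 and control replicate 3 at -0.03. The part of the pancreas markers in these values was not tested. As a gene, mat2b was at -0.0035 and 0.15 in cadmium replicates 1 and 2, against 0.07 and -0.21 in control replicates 2 and 3, so the groups overlapped. Its log2 difference was 0.14 ± 0.14 (SE).

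The genes of the catalytic subunits that mat2b partners, named here as relatives of mat1a and not for their values, were at 0.10 ± 0.31 (mat2aa) and -0.04 ± 0.11 (mat2ab), and the related mat2al was at -0.05 ± 0.23. On array 3, mat2aa read 0.91, but on arrays 1, 2 and 4 it read -0.28, -0.06 and -0.17. A mean near 0 in mat2aa thus covers 1 high array, the one on which mat2b probe 1 was also high.

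**Figure D1:**
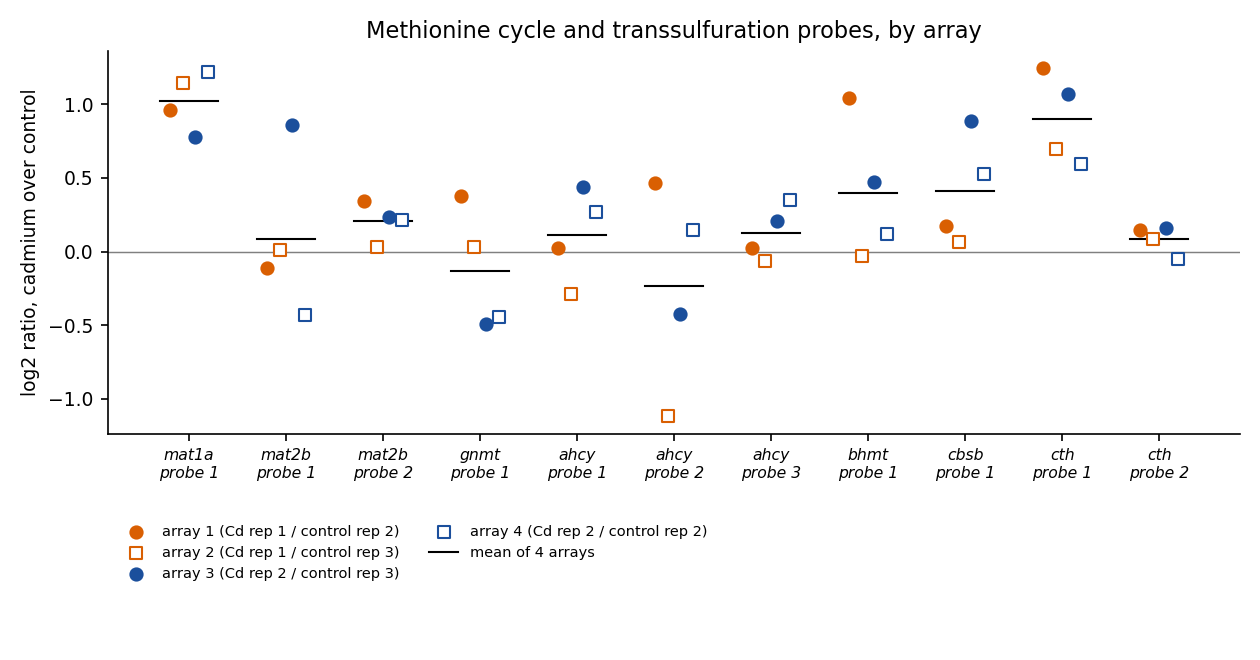
Log2 ratio of cadmium over control (vertical axis) for each of the 11 probes (horizontal axis) on each of the 4 arrays. Orange symbols are arrays with cadmium replicate 1 and blue ones arrays with cadmium replicate 2, filled where cadmium was on Cy3 and open where it was on Cy5, and the bar is the mean of the 4 arrays. The mat1a probe and cth probe 1 lie above 0.5 on all 4 arrays, and ahcy probe 2 spans -1.12 to 0.46.

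Glycine N-methyltransferase, encoded by gnmt (Entrez Gene 403338), is an abundant liver enzyme that spends surplus S-adenosylmethionine on methylating glycine. Its probe read 0.38 and 0.03 on the arrays of cadmium replicate 1, and -0.49 and -0.44 on those of cadmium replicate 2. The cadmium RNAs thus stood on either side of the controls, at 0.27 and -0.40 in cadmium replicates 1 and 2, against -0.03 and 0.16 in control replicates 2 and 3. The log2 difference was -0.13 ± 0.26 (SE), and without cadmium replicate 2 it was 0.20. Cadmium replicate 2, where gnmt was lowest, was also the RNA with the highest ovary markers. Their part in the gnmt value was not tested.

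S-adenosylhomocysteine, which inhibits methyltransferases, is split to homocysteine and adenosine by the product of ahcy (Entrez Gene 387530). The 3 probes of ahcy did not run together. Probe 1 read 0.02, -0.29, 0.44 and 0.27 on arrays 1 to 4, and probe 3 read 0.02, -0.06, 0.21 and 0.35. Probe 2 read 0.46, -1.12, -0.42 and 0.15, so it was low on arrays 2 and 3, those that carried control replicate 3. Solved for RNAs, probe 2 placed control replicate 3 above control replicate 2 by 1.07, whereas probes 1 and 3 gave that difference as 0.07 and 0.11. The gene mean was at -0.16 and 0.16 in cadmium replicates 1 and 2, against -0.21 and 0.21 in control replicates 2 and 3, and its log2 difference was 0.0028 ± 0.21 (SE). The probes lay at 0.11, -0.23 and 0.13, a range of 0.36 that 7.77% of the 6104 genes with more than 1 probe matched or passed.

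Betaine-homocysteine methyltransferase, encoded by bhmt (Entrez Gene 322228), returns homocysteine to methionine with a methyl group from betaine. Its probe read 1.04 and -0.03 on arrays 1 and 2, and 0.47 and 0.12 on arrays 3 and 4. The higher readings came from arrays 1 and 3, on which cadmium was labelled with Cy3, and the dye effect was -0.36, against a median size of 0.05 over all genes. With the dye effect taken out, bhmt was at 0.30 and 0.09 in cadmium replicates 1 and 2, against -0.38 and -0.02 in control replicates 2 and 3. The cadmium RNAs lay above both controls, by 0.11 at the closest, while the controls differed from each other by 0.36. The log2 difference was 0.40 ± 0.17 (SE). It was 0.22 without control replicate 2 and 0.58 without control replicate 3.

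Cystathionine beta-synthase joins homocysteine to serine and opens transsulfuration. For cbsb (Entrez Gene 266987) the probe read 0.18 and 0.06 on the arrays of cadmium replicate 1, and 0.89 and 0.53 on those of cadmium replicate 2. All 4 arrays were above 0, but the size came from cadmium replicate 2, which was at 0.50, with cadmium replicate 1 at -0.09, against -0.15 and -0.27 in control replicates 2 and 3. The lower cadmium RNA lay 0.06 above the higher control RNA. The log2 difference was 0.41 ± 0.23 (SE), and without cadmium replicate 2 it was 0.12. Ovary markers were highest in the same RNA and lowest in cadmium replicate 1. There cbsb lay 0.06 above the higher control, while the controls differed by 0.12. The part of the ovary markers in the cbsb value was not tested.

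The paralogous gene cbsa, picked because it encodes the same enzyme, had the reverse order of the cadmium RNAs. It read 0.61 and 0.69 on the arrays of cadmium replicate 1, and -0.06 and 0.22 on those of cadmium replicate 2. That placed cbsa at 0.47 and -0.10 in cadmium replicates 1 and 2, against -0.23 and -0.13 in control replicates 2 and 3, with a log2 difference of 0.37 ± 0.22 (SE). The means of cbsa and cbsb were thus alike, but each rested on another cadmium RNA.

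Cystathionine gamma-lyase, encoded by cth (Entrez Gene 322055), splits cystathionine and releases cysteine. Its probes gave different answers. Probe 1 (A_15_P114130) read 1.25, 0.70, 1.07 and 0.59 on arrays 1 to 4, and probe 2 (A_15_P471945) read 0.15, 0.09, 0.16 and -0.05. Probe 1 was at 0.52 and 0.38 in cadmium replicates 1 and 2, against -0.47 and -0.43 in control replicates 2 and 3, a log2 difference of 0.90 ± 0.09 (SE) and the tenth largest moderated t of 43603 probes. Probe 2 was at 0.08 and 0.01 in cadmium replicates 1 and 2, against -0.0052 and -0.08 in control replicates 2 and 3, a log2 difference of 0.09 ± 0.08 (SE). The distance of 0.81 between them was matched or passed by 0.491% of genes with more than 1 probe, where the median was 0.11. On arrays 1 to 4 the value of probe 2 was shared exactly by 8, 132, 8 and 254 other probes, and that of probe 1 by 0 on every array. What these repeated values stem from was not tested, and no spot brightness was used here.

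The mean over both probes placed cth at 0.30 and 0.20 in cadmium replicates 1 and 2, against -0.24 and -0.26 in control replicates 2 and 3. The log2 difference was 0.49 ± 0.09 (SE), with the lower cadmium RNA 0.43 above the higher control RNA. The dye effect of probe 1 was -0.26, and its readings were higher on arrays 1 and 3 than on arrays 2 and 4. Among measured genes cthl, a relative of cth, lies next to it in RefSeq's gene order. The log2 difference of cthl was 0.25 ± 0.17 (SE), with array values from -0.02 to 0.58.

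**Figure D2:**
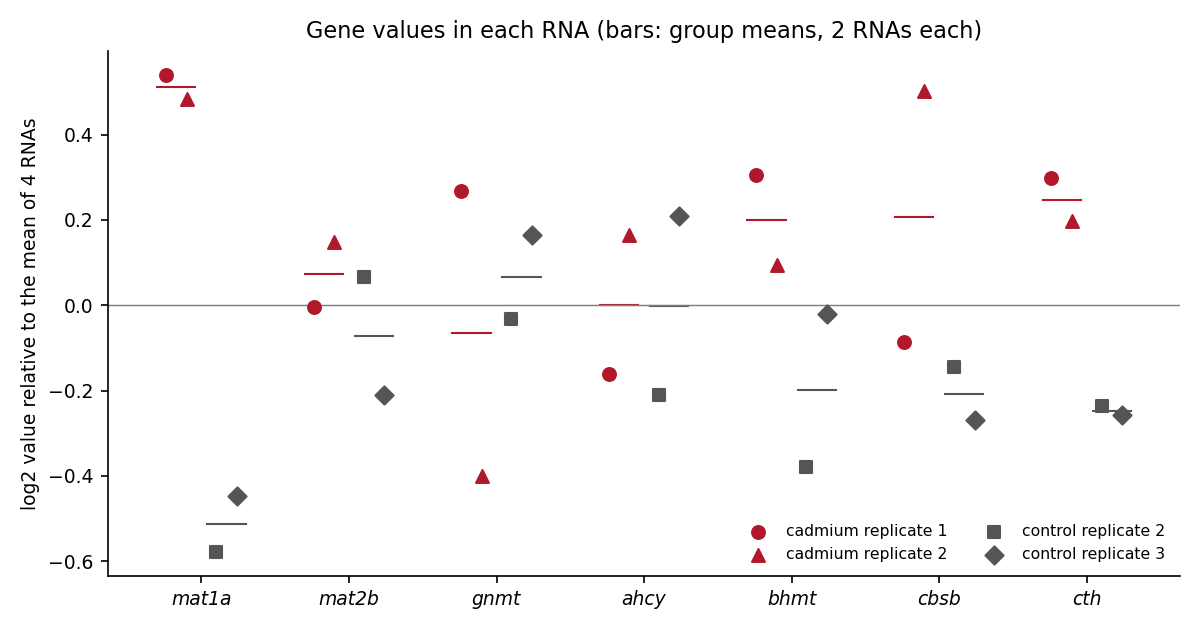
Log2 value of each gene relative to the mean of the 4 RNAs (vertical axis), by gene (horizontal axis), with the cadmium RNAs in red left of the control RNAs in grey and bars at the group means. In mat1a and cth the RNAs of a group lie close together, in bhmt and cbsb the lower cadmium RNA lies 0.11 and 0.06 above the higher control, and in mat2b, gnmt and ahcy the groups overlap.

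Seen side by side, 6 of the 7 genes had a log2 difference above 0, where 56.9% of all genes did. Among the 6 was ahcy, at 0.0028 ± 0.21 (SE), whose sign turned under other normalizations of the arrays. The cadmium RNAs both lay above both control RNAs in 4 of the 7 (mat1a, bhmt, cbsb and cth), where 11.7% of all genes did, and in 0 of the 7 below them, where 10.2% did. All 4 arrays were above 0 in 3 of the 7 (mat1a, cbsb and cth), where 7.99% of all genes were. The median log2 difference was 0.40 over the 7 genes and 0.017 over all genes. By probe, 9 of the 11 had a difference above 0, beside 51.7% of all probes, and 4 had all 4 arrays above 0, beside 6.38%, with 0 all below, beside 6.82%. In 6 of the 11 probes both cadmium RNAs lay above both controls, beside 10.3% of all probes, and in 0 below them, beside 10.6%. Among the 6744 probes that shared no value on any array, a background chosen after seeing the data, 8.88% had all 4 arrays above 0 and 11.5% both cadmium RNAs above both controls, while of the 8 enzyme probes of that kind 3 and 4 did. In the other direction the shares of the 6744 were 10.2% and 12.9%, and 0 of the 8 enzyme probes were in either. The median size of the log2 difference was 0.32 in those 8 probes and 0.22 in the 6744. It was 0.045 in the 29078 probes that shared their value on all 4 arrays. Over all genes, whose values are means over probes, it was 0.07. The 7 genes were taken up with earlier results of these data in view, so these counts describe them and test nothing.

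Cadmium replicates differed from each other by a median size of 0.21 over the 7 genes and 0.16 over all genes, and control replicates by 0.20 and 0.11. Only in mat1a and cth among the 7 was the closest approach of the groups wider than the difference within each group. In cth this held for the mean and for probe 1, where the groups lay 0.81 apart. It did not hold for probe 2, where they lay 0.02 apart and the RNAs within groups differed by 0.06 and 0.08. How many of all genes met this criterion was not counted, so it has no background here.

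The log2 difference of mat1a stayed between 0.96 and 1.09 with any 1 RNA left out. The calls over the whole table depended on cadmium replicate 1. Without it, limma gave an adjusted p of 0.0146 for mat1a (log2 difference 1.00) and of 0.0283 for cbsb (0.71), and of 0.0203 for cth probe 1 (0.83), while 1456 genes, or 9.36%, and 2523 probes, or 5.79%, were called over the whole table. In that fit cadmium replicate 2 alone stood for the treatment and was assumed to vary like the controls. Each of these values thus rests, on the cadmium side, on the RNA with the high ovary markers. Without cadmium replicate 2, limma called 0 genes, with an adjusted p of 0.228 for mat1a at a log2 difference of 1.05. With all 4 RNAs, 2 other settings called a few features, none of them an enzyme of the 7. Treating arrays as units with no dye term called 0.0129% of genes and 0.00688% of probes, and leaving out the 25% of lowest variance called 0.0171% and 0.0122%. Each RNA was on 2 arrays, so in the first of these settings the units were not independent. The genes called in both settings were chia.6 and hamp, named here after their values were seen.

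**Figure D3:**
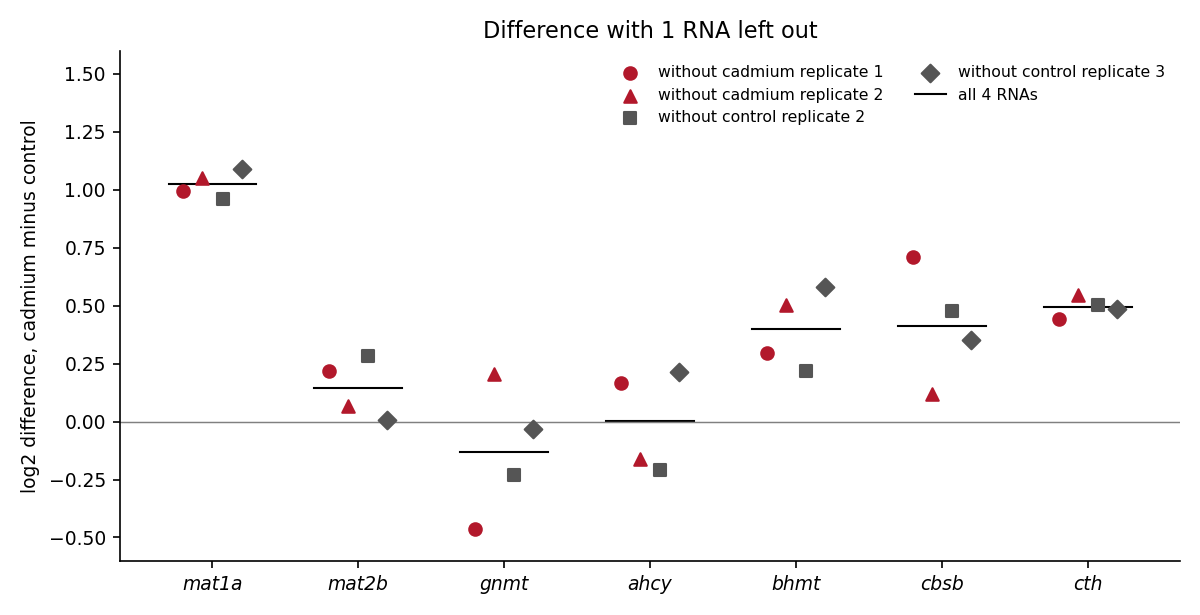
Log2 difference of cadmium minus control (vertical axis) for the 7 genes (horizontal axis) with all 4 RNAs (bar) and with 1 RNA left out (symbols). The values of mat1a stay between 0.96 and 1.09 and those of cth between 0.44 and 0.54, while gnmt and ahcy lie on both sides of 0 and cbsb spans 0.12 to 0.71.

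The neighbouring steps of one-carbon and sulfur metabolism were read through 10 lists with 98 measured genes. None of the 98 passed the test. On all 4 arrays 20 of them (20.4%) were above 0 and 3 (3.06%) below 0, beside 7.99% and 6.90% of all genes, and the median log2 difference was 0.06. The lists, like the 7 genes, were written with earlier results in view.

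The 9 other enzymes of the cycle and of transsulfuration had 6 genes above 0 and 3 below, with a median of 0.10. Methionine synthase, encoded by mtr, uses methyl-folate where Bhmt uses betaine. Named as the partner of mtrr, it read 0.77 and 0.60 on the arrays of cadmium replicate 1, and -0.32 and 0.41 on those of cadmium replicate 2. Its reactivating enzyme gene mtrr was above 0 on all 4 arrays, at a log2 difference of 0.17 ± 0.09 (SE). The gene ahcyl2b, which encodes an Ahcy-like protein, was below 0 on all 4 arrays, at -0.10 ± 0.08 (SE).

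In choline, betaine and glycine breakdown 10 of 11 genes were above 0, 4 of them on all 4 arrays, with a median of 0.19. Its leading member aldh7a1, whose product oxidises betaine aldehyde to betaine and also serves lysine breakdown, read 0.67, 0.55, 0.57 and 0.51 on arrays 1 to 4, a log2 difference of 0.57 ± 0.09 (SE). Without cadmium replicate 1, aldh7a1 was at 0.54. The glycine cleavage gene gldc was at 0.36 ± 0.09 (SE), with arrays from 0.21 to 0.51. For agxtb, an alanine-glyoxylate aminotransferase gene, the value was 0.47 ± 0.16 (SE), and it was 0.28 without cadmium replicate 1. The genes that demethylate the products of Bhmt and Gnmt, dmgdh and sardh, named for that role, were at 0.02 ± 0.12 (SE) and -0.03 ± 0.09 (SE). In RefSeq's gene order dmgdh is the measured gene next to bhmt.

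In the folate list 9 of 16 genes were above 0, with a median of 0.06. Of the 4 that were above 0 on all 4 arrays, the rule named aldh1l2, a mitochondrial enzyme that oxidises formyl-folate, at 0.61 ± 0.32 (SE), atic of purine synthesis at 0.41 ± 0.20 (SE) and mthfd2l at 0.14 ± 0.08 (SE), and the other was mthfd2 at 0.20 ± 0.13 (SE). On arrays 1 and 4, which carried control replicate 2, aldh1l2 read 1.30 and 0.78, and on arrays 2 and 3 it read 0.07 and 0.29. The log2 difference of aldh1l2 was 0.18 without control replicate 2 and 1.04 without control replicate 3. Without cadmium replicate 2, atic was at 0.17.

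Methyltransferases that draw on S-adenosylmethionine were above 0 in 6 of 9 cases, with a median of 0.07. The member named by rule was icmt, which methylates the ends of prenylated proteins, at 0.15 ± 0.09 (SE). Singled out after their values were seen, pemt, which methylates phosphatidylethanolamine in liver, read 0.24, 0.02, -0.66 and -0.74 on arrays 1 to 4, and dnmt1, the maintenance DNA methyltransferase gene, read 0.04, -0.33, 1.40 and 1.01. Like gnmt, pemt was lowest in cadmium replicate 2 (-0.56), and like the ovary markers dnmt1 was highest there (0.94). Serine, the partner of homocysteine in transsulfuration, is made through phgdh and psat1, the only measured genes of their list, which were at 0.43 ± 0.51 (SE) and 0.16 ± 0.35 (SE), also highest in cadmium replicate 2 (0.91 and 0.52). The part of the ovary markers in these values was not tested.

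In the list of cysteine breakdown, sulfide and taurine 6 of 11 genes were above 0, with a median of 0.02. Its aspartate aminotransferase genes got1 and got2a were above 0 on all 4 arrays, at 0.84 ± 0.49 (SE) and 0.24 ± 0.17 (SE), but in both genes the cadmium and control RNAs overlapped. On arrays 1 to 4 got1 read 1.91, 0.80, 0.0072 and 0.64, so array 3 was barely above 0. The log2 difference of got1 was 0.32 without cadmium replicate 1 and 1.36 without cadmium replicate 2. For got2a it was 0.10 without cadmium replicate 1 and 0.08 without control replicate 2.

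Glutathione synthesis and turnover had 5 of 8 genes above 0 and a median of 0.08. The 5-oxoprolinase gene oplah, which recycles the glutamate part of glutathione, was below 0 on all 4 arrays, at -0.44 ± 0.16 (SE), and the glutathione synthetase gene gss above 0 on all 4, at 0.13 ± 0.12 (SE), with overlapping RNAs. Without cadmium replicate 2, oplah was at -0.28 and gss at 0.05, and gss was also at 0.05 without control replicate 3. The rate-limiting ligase genes gclc and gclm, named for their role, were at 0.15 ± 0.12 (SE) and 0.23 ± 0.32 (SE), neither on one side of 0 on every array.

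In the remaining lists the medians lay between -0.03 and 0.06. Methionine salvage and polyamine genes were above 0 in 5 of 7 cases, 0 of them on all 4 arrays. Cobalamin and vitamin B6 genes were above 0 in 6 of 10 cases, led by mmab (0.22 ± 0.14, SE), mmachc (0.26 ± 0.17, SE) and mmadhca (0.10 ± 0.10, SE), which handle vitamin B12. Without cadmium replicate 2 these were at 0.07, 0.06 and 0.04. For mmadhca the cadmium and control RNAs overlapped. Array 2 was barely above 0 for mmadhca (0.00075) and mmachc (0.0040). Neutral amino acid transporters were above 0 in 7 of 15 cases. Among them slc16a10, which carries aromatic amino acids, had the highest log2 difference of all named genes, 1.36 ± 0.21 (SE). Its 1 probe read 2.12, 1.03, 1.37 and 0.91 on arrays 1 to 4, with a dye effect of -0.39. Without cadmium replicate 1, slc16a10 was at 1.14. The genes slc43a1b and slc43a2b, of a family that carries large neutral amino acids, were at 0.44 ± 0.20 (SE) and 0.18 ± 0.10 (SE). Without cadmium replicate 1, slc43a1b was at 0.21. Without cadmium replicate 2, slc43a1b was at 0.67 and slc43a2b at 0.10.

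**Figure D4:**
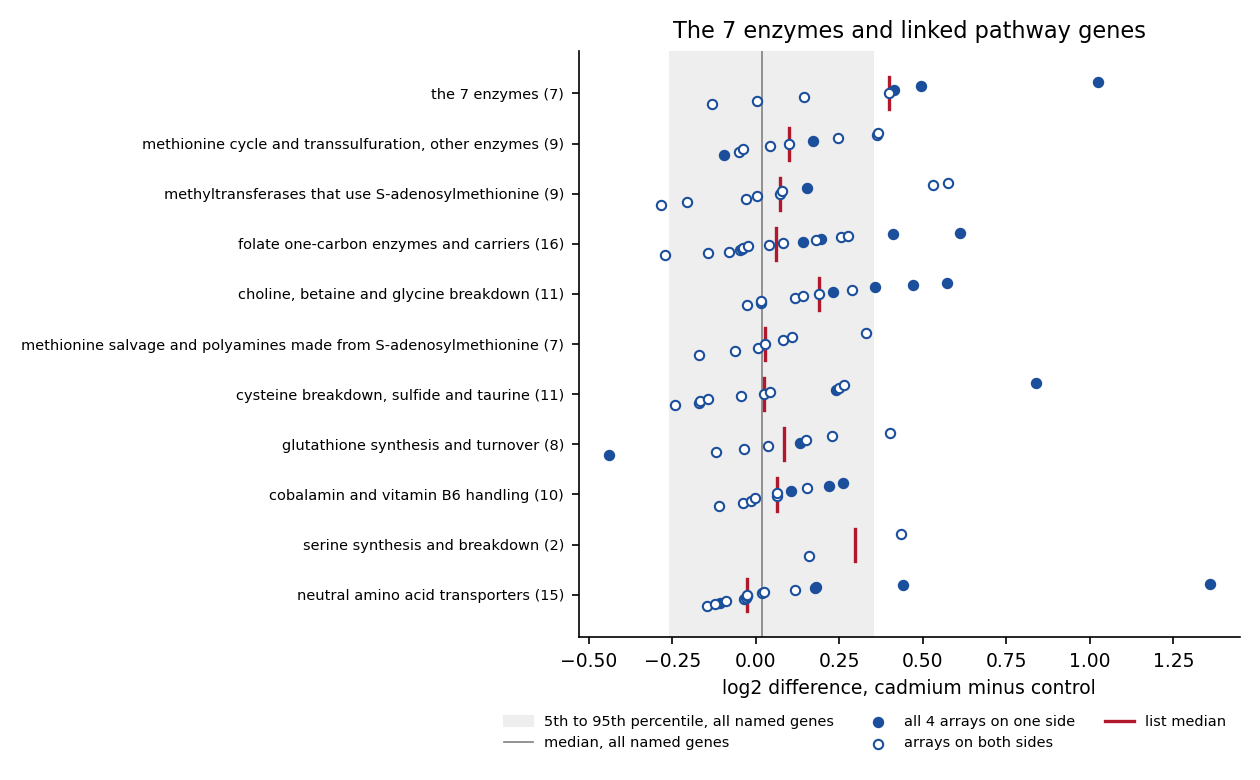
Log2 difference of cadmium minus control (horizontal axis) for the 7 enzymes and for the genes of 10 linked lists (vertical axis, measured genes in brackets). Each point is a gene, filled where all 4 arrays lie on one side of 0, the red bar is the list median, and the grey band is the 5th to 95th percentile of all named genes, -0.26 to 0.35. Of the 7 enzymes, mat1a, cth, cbsb and bhmt lie right of the band.

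The genes whose 4 array values lay closest to those of mat1a, by Euclidean distance over the 4 arrays, were ddah1 (0.41), tdo2b (0.42), tefa (0.47), aacs (0.59) and grpel1 (0.65). In ddah1, which encodes an enzyme that breaks down methylated arginines, the arrays read 0.85, 1.16, 0.51 and 0.94, and in tdo2b, of tryptophan breakdown, 0.94, 0.74, 0.82 and 1.08. These arrays share 4 RNAs, so the likeness is a description of 4 hybridisations. Without cadmium replicate 1, where limma called 9.36% of all genes and mat1a among them, the 5 genes were called too, which follows in part from choosing them for their likeness to mat1a. Of the other enzymes, cth at a distance of 1.25 was the nearest, 90th among all genes, and gnmt at 2.44 the farthest, beside a median of 2.07 over all genes.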

How the data were processed

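Each deposited value was a log2 dye ratio, and the table of 43603 probes by 4 arrays had 0 missing. Per the submitters' processing notes limma was used, and per the labels' protocols RNA was extracted with Trizol and labelled by version 5.7 of Agilent's protocol. How background was handled, which normalization was used and whether spots were filtered is not given in the sources used here; spot signals were not used. Column medians were -7.46e-05, -0.000451, 0.000711 and 0.00373, so the ratios were centred by an unknown method. The base was taken as 2, since the largest size of 6.14 would exceed a scanner's range in base 10. Before turning, the correlation over probes was -0.04 between arrays 1 and 3 and -0.22 between arrays 2 and 4, the pairs with the same dye layout. The arrays of each pair had no RNA in common.

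Probes were named from the platform's annotation, with 23717 carrying 1 symbol, 0 several and 19886 unnamed here. RefSeq's table (GRCz12tu) held the gene identifiers of 23534, and 0 symbols changed. List symbols were also matched through its synonyms.

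Per probe, 3 RNA differences and 1 dye effect were solved, and 2 cadmium RNAs were compared with 2 control RNAs by lmFit and eBayes (limma 3.58.1, R 4.3.3), as a two-sided test called at a Benjamini-Hochberg adjusted p under 0.05. The residual degrees of freedom were 2, with a prior of 1.91 for genes and 2.17 for probes. The fit was tested on simulated data. The number of RNAs, 2 per group, limits the precision.

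The 7 genes, lists and tests were chosen with earlier results of these data known. Named were all probes of the 7 genes, up to 3 genes per pathway list with the largest moderated t among those with all 4 arrays on one side, and the 5 genes nearest to mat1a. A planned motif search was not run, since no promoter sequences were used here. Alternatives were array scaling, quantile normalization, arrays as units with and without a dye term, a variance filter, robust eBayes, the median over probes and leaving out each RNA. An RNA was left out after the RNA values had been solved from all 4 arrays.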

Additional observations from a re-analysis of the deposited data

How the results depend on the processing

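Under the 56 alternative values that kept all 4 RNAs, none of the 7 enzyme genes was called by limma, and the sign turned in 3, all of ahcy, whose value of 0.0028 became -0.0065 with scaled arrays, -0.0021 after quantile normalization and -0.23 on probe 2 alone. Over the settings that kept all probes, mat1a lay between 1.02 and 1.13, cth between 0.49 and 0.58, cbsb between 0.34 and 0.41 and bhmt between 0.40 and 0.52. Each probe taken alone, an alternative added after seeing the data, gave cth as 0.90 or 0.09. With arrays as units and no dye term 2 genes and 3 probes were called, and without the 25% of lowest variance 2 genes and 4 probes, none of them among the 7 enzymes. Leaving out 1 RNA gave 0.96 to 1.09 for mat1a, 0.0060 to 0.28 for mat2b, -0.47 to 0.20 for gnmt, -0.21 to 0.21 for ahcy, 0.22 to 0.58 for bhmt, 0.12 to 0.71 for cbsb and 0.44 to 0.54 for cth. By probe it gave -0.27 to 0.43 for mat2b probe 1, -0.13 to 0.35, -0.77 to 0.30 and -0.0186 to 0.28 for ahcy probes 1 to 3, and 0.83 to 0.97 for cth probe 1. Between 0 and 1456 genes and 0 and 2523 probes were called, the highest counts without cadmium replicate 1, where mat1a, cbsb and cth probe 1 passed the threshold. The cause was not tested. Counted without each RNA in turn, also added after seeing the data, 5 to 6 of the 7 genes were above 0. They were not always the same ones (without cadmium replicate 2, gnmt was above 0 and ahcy below). In each of these counts 5 had every cadmium RNA above every control RNA, where fewer RNAs make that easier. The shares over all genes were not counted with an RNA left out, so these counts have no background and show no robustness. No paired analysis was possible because the groups share only replicate number 2.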

Other observations

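The measured gene on the other side of cth from cthl in RefSeq's gene order, nit2, was below 0 on all 4 arrays, with values between -1.01 and -0.22 and a log2 difference of -0.56 ± 0.24 (SE). In other vertebrates its product, an omega-amidase, acts on keto acids from the transamination of glutamine. The measured neighbours of mat1a, zgc:154058 and selenou1a, lay at -0.11 ± 0.22 and -0.09 ± 0.13 (SE), with arrays on both sides of 0. Of 14 neighbours of the 7 genes, nit2 was the only one with all 4 arrays on one side. Over all genes, 7.99% had all 4 arrays above 0 and 6.9% below 0, so such a neighbour is not unusual. These neighbours were looked up after the values of the 7 genes were seen.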
